A study of Mus musculus with 2 samples.

Results

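The 10 genes described here encode the glucose transporter Slc2a1 and 9 enzymes of glycolysis: Hk2, Pfkl, Aldoa, Tpi1, Gapdh, Pgk1, Eno1, Pkm and Ldha. They were chosen by name from the 20451 genes of the count tables, and all 10 were present. Glycolysis splits glucose into pyruvate in the cytosol, yields ATP without oxygen, and can end in lactate. Neutrophils and inflammatory monocytes are known for leaning on it, dendritic cells raise it early when Toll-like receptors are stimulated, and hypoxia-inducible factor 1 (Hif1a) and Myc are known activators of many of these genes.

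The data were single-cell transcriptomes of mouse thymus, recorded as 1 pool of droplets with a hashtag oligonucleotide on the cells of each genotype. Mgl2DTR mice (labelled Mgl2DTR_eGFP) are named for a toxin receptor with a fluorescent tag at Mgl2, a lectin gene of type 2 dendritic cells and some macrophages. They received 500 ng of diphtheria toxin for 48 h, which kills mouse cells bearing that receptor, and were 7 weeks old. Wild-type (WT) mice were B6 of the same age, and the labels do not say whether they received toxin. Digested thymus was cleared of cells bearing CD90.2, a T-cell protein, by magnetic depletion. What was left was stained for CD11c and CD11b, proteins of dendritic and myeloid cells, and sorted for live cells.

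Of 28926 cells, 7433 carried the Mgl2DTR hashtag alone (71521759 UMIs, median 6930 a cell) and 11586 the WT hashtag alone (116719748 UMIs, median 7820). No barcode was shared by both tables. Animals were not named and both genotypes were in 1 pool, so each genotype was treated as 1 library, the sum of its hashtagged cells. Differences between genotypes have no replicate check, and no test was made. Cells were grouped into 41 clusters without the 10 genes, and 29 of these were named by marker genes into 10 classes, whose names end in "-like". Levels are in CPM: UMIs of a gene were summed over the cells of a group and scaled to a fixed total over all genes. A UMI stands for 1 captured transcript. Ratios are Mgl2DTR over WT unless stated. Ranges in brackets are exact 95% intervals for counting error alone. To be called higher or lower, a gene needed 50 summed counts, a 1.5-fold difference and an interval entirely above or below 1.

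The label Mgl2DTR was checked on Mgl2 itself, which stood at 216.3 CPM in Mgl2DTR and 603.4 CPM in WT cells of the type 2 dendritic cell (cDC2-like) class. Cells from the T lineage remained after the depletion, 493 Mgl2DTR and 2201 WT T cell-like cells. The mix of classes differed: monocyte-like cells were 9.24% of Mgl2DTR and 2.63% of WT cells, neutrophil-like cells 13.02% and 3.56%, and cDC2-like cells 3.79% and 10.1%.

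Promoter sequences of Slc2a1, Pgk1 and Ldha are shown because these genes were among those higher together in Mgl2DTR monocyte-like cells, below, and because the core of the hypoxia response element can be read in them. They come from the RefSeq promoter table (GRCm38.p6), from 250 bases before to 50 after a start site, 5′ to 3′ on the gene's strand. Capitals mark ACGTG, a form of the core bound by hypoxia-inducible factor, or its reverse complement CACGT. No other form of the core was searched. Where the 2 overlap they form CACGTG, the E-box of Myc and related factors. The coordinates are chr4:119108495-119108794 (plus strand), chrX:106186850-106187149 (plus strand) and chr7:46845554-46845853 (plus strand).
Slc2a1: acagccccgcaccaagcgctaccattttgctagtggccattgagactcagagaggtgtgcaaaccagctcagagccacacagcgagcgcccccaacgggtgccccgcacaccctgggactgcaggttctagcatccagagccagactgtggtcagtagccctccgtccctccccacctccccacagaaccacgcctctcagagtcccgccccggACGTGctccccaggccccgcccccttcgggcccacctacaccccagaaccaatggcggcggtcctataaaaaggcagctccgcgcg
Pgk1: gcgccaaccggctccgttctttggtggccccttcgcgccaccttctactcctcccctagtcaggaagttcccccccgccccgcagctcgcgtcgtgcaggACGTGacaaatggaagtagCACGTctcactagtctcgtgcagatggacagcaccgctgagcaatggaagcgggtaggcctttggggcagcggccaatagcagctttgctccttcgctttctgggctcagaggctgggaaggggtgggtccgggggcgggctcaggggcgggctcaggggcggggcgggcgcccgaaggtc
Ldha: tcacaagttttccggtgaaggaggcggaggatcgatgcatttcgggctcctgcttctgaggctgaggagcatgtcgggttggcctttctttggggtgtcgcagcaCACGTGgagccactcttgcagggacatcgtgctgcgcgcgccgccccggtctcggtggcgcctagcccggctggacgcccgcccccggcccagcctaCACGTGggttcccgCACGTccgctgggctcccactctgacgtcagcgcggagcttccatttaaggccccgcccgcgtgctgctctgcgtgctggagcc
ACGTG, read on either strand, occurred at 1 position in the Slc2a1 window and at 2 in the Pgk1 window, 150 and 131 bases before the start. In the Ldha window it was matched at 5 positions, of which 4 came from 2 CACGTG palindromes. Of 32851 promoters of the same length, 19.6% held ACGTG on either strand and 7.15% held CACGTG. The Hk2 window held 2 matches, 226 and 52 bases before the start, and Hk2 was not called in monocyte-like cells. The Gapdh window held 1 match, and 1 of 2 Pkm windows held 2. Of 3 Aldoa windows 2 held 1 match each, which is the same site because these windows overlap. No window of Pfkl, Tpi1 or Eno1 held a match to ACGTG, and neither did another Ldha window. A match describes letters only and says nothing of binding.

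Summed over the 10 genes, Mgl2DTR monocyte-like cells had the highest level of the 10 classes and activated dendritic cells (activated DC-like) the lowest in that genotype, though without called doublets plasmacytoid dendritic (pDC-like) cells were lowest there, at 1225 CPM against 1302 CPM in activated DC-like cells. Gapdh weighs most in these sums, with 42.4% of the UMIs of the 10 genes over all Mgl2DTR cells and 45.2% over all WT cells. The sum was 3538 CPM (3494 to 3583) in Mgl2DTR and 2262 CPM (2197 to 2328) in WT monocyte-like cells. In neutrophil-like cells it was 3199 CPM (3160 to 3238) in Mgl2DTR and 2678 CPM (2626 to 2731) in WT, the highest WT class. Cluster 32, led by Elane and Mpo, held 87 of the 968 Mgl2DTR neutrophil-like cells but 12768 of their UMIs for the 10 genes, at 3908 CPM, while cluster 6 had 2628 CPM in Mgl2DTR and 2780 CPM in WT. When cells were given equal totals the neutrophil-like sums were 2717 CPM in Mgl2DTR and 2569 CPM in WT. Neutrophil markers alone took up 232860 CPM in Mgl2DTR and 291546 CPM in WT neutrophil-like cells. With the 135 marker genes of all classes left out of the total, the sums were 4223 CPM in Mgl2DTR and 3833 CPM in WT, and neutrophil-like cells ranked first in both genotypes. Macrophage-like, cDC2-like and type 1 dendritic (cDC1-like) cells lay close together, between 2291 and 2466 CPM in Mgl2DTR and between 2375 and 2457 CPM in WT. Below them came T cell-like cells with 1783 and 1996 CPM, B cell-like cells with 1619 and 1965 CPM, and pDC-like cells with 1451 and 1713 CPM, Mgl2DTR first. Activated DC-like cells had 1358 CPM (1329 to 1387) in Mgl2DTR and 1521 CPM (1500 to 1542) in WT, and natural killer or innate lymphoid (NK/ILC-like) cells 1413 CPM (1261 to 1578) and 1435 CPM (1330 to 1547). The intervals of these 2 classes overlapped in both genotypes, as did those of macrophage-like and cDC2-like cells in Mgl2DTR and of macrophage-like and cDC1-like cells in WT.

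**Figure D1:**
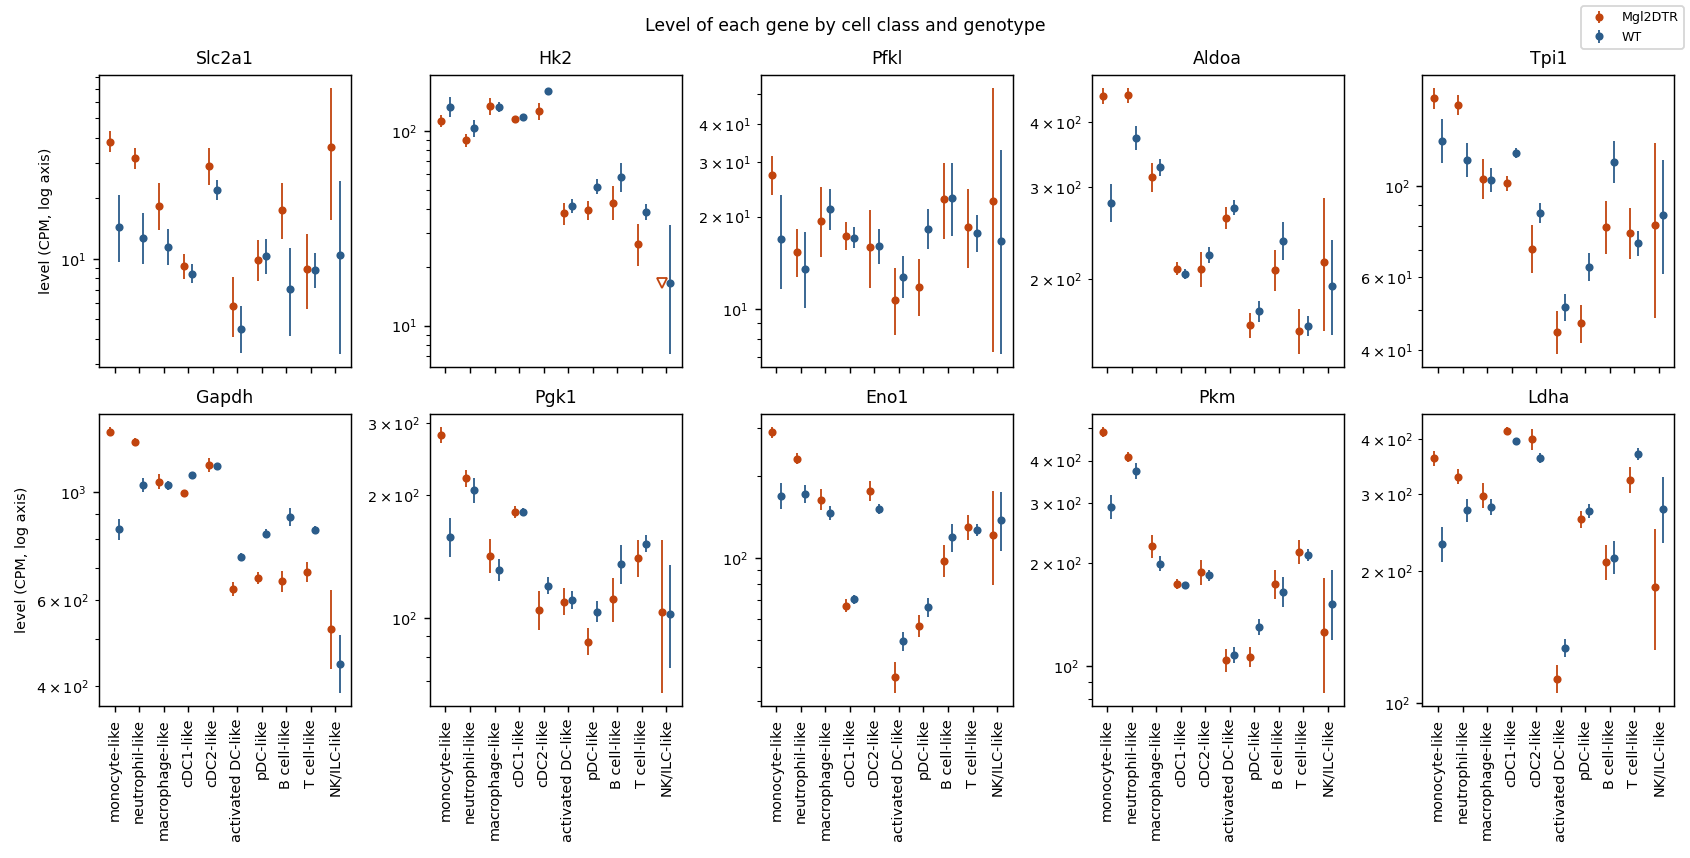
Level of each gene (CPM, log axis) in 10 cell classes, Mgl2DTR left of WT, with exact 95% Poisson intervals. The open triangle is the upper limit for Hk2 in Mgl2DTR NK/ILC-like cells, where no UMI was counted. Eno1 and Pkm are highest in the monocyte-like and neutrophil-like classes of both genotypes, and Aldoa in those of Mgl2DTR. Tpi1, Eno1 and Ldha are lowest in activated DC-like cells.

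The first question was whether the genes differed between the genotypes within a class, where the mix of classes plays no part. Over all cells the summed level was 2342 CPM in Mgl2DTR and 2126 CPM in WT (ratio 1.10). With the WT mix of classes given to both genotypes the ratio was 1.01. Slc2a1 was the 1 gene of the 10 called higher over all cells, at 16.2 CPM in Mgl2DTR and 10.5 CPM in WT (ratio 1.55), and its ratio was 1.30 with the WT mix. Of all measured genes 6.68% were called higher and 5.26% lower over all cells.

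In monocyte-like cells 8 of the 10 genes were called higher in Mgl2DTR and none lower, where 5.89% of 8540 measured genes were called higher and 11.8% lower. Their median log2 ratio was 0.69, against -0.07 for all measured genes. Slc2a1, the transporter that brings glucose into the cell, had 38.2 CPM in Mgl2DTR and 14.4 CPM in WT (ratio 2.66, 1.81 to 4.05). Pgk1, which makes the first ATP of the pathway, had 280.6 CPM in Mgl2DTR and 157.7 CPM in WT (1.78, 1.58 to 2.01). Eno1, which forms phosphoenolpyruvate, had 288.6 CPM in Mgl2DTR and 168.6 CPM in WT (1.71, 1.53 to 1.93).

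Pkm, which makes pyruvate, had 484.5 CPM in Mgl2DTR and 292.1 CPM in WT (1.66, 1.52 to 1.81). Aldoa, which splits fructose 1,6-bisphosphate, Gapdh, which reduces NAD, Pfkl, the liver-type phosphofructokinase of the committing step, and Ldha, which turns pyruvate into lactate, had ratios between 1.57 and 1.62. Hk2, which traps glucose as glucose 6-phosphate, was not called: it had 113.0 CPM in Mgl2DTR and 133.9 CPM in WT (0.84). Tpi1, which interconverts the triose phosphates, had 164.0 CPM in Mgl2DTR and 128.9 CPM in WT and a ratio of 1.27.

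Markers of other lineages differed between the genotypes too. Neutrophil markers summed to 28096 CPM in Mgl2DTR and 2953 CPM in WT monocyte-like cells, and macrophage markers to 1489 and 4832 CPM. Called doublets were 5.53% of Mgl2DTR and 16.4% of WT monocyte-like cells, and median depth was 8824 and 5277 UMIs. Without cells that held at least 2 defining genes of another lineage, 459 Mgl2DTR and 213 WT monocyte-like cells were left, and 1 of the 10 genes, Slc2a1, was still called, at a ratio of 2.12. The median log2 ratio of the 10 genes was then 0.50. Without called doublets 6 were called, with a median of 0.59. The part of these cells in the result was not tested.

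**Figure D2:**
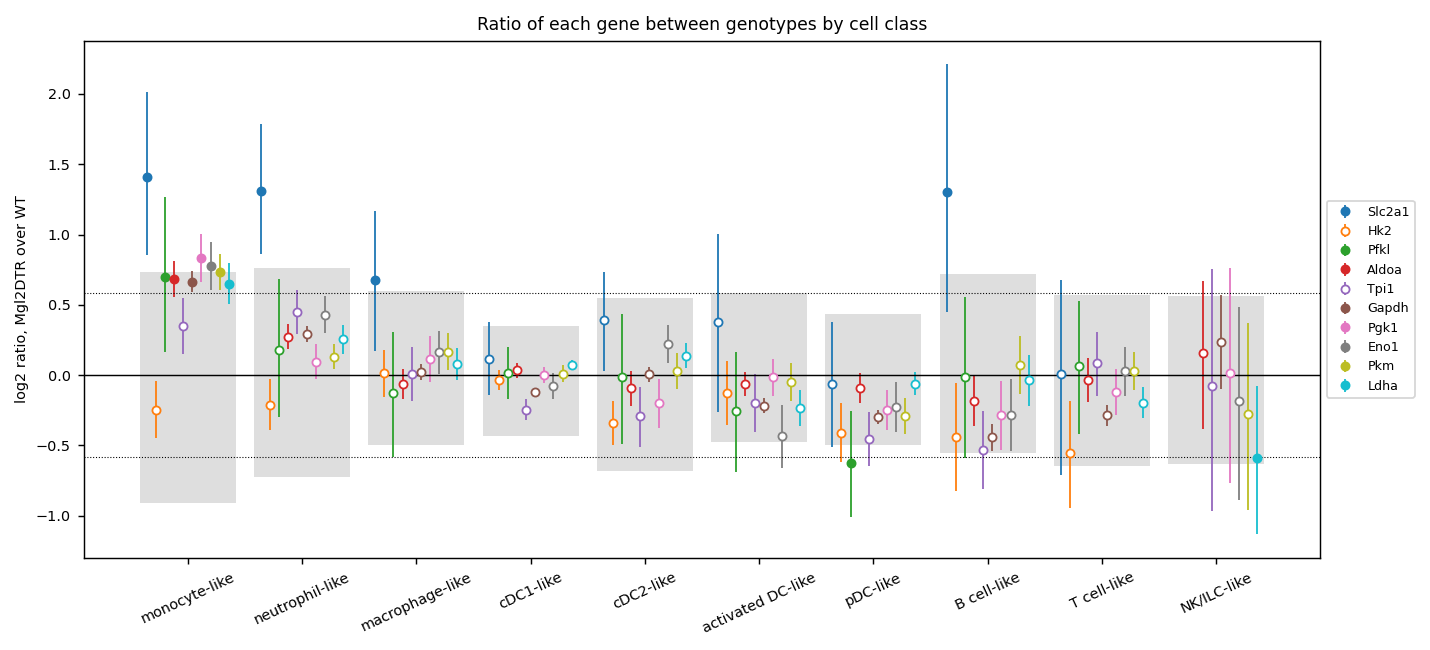
log2 ratio of each gene, Mgl2DTR over WT, by cell class, with exact 95% intervals. Filled points were called, open points were not, grey bands span the 5th to 95th percentile of all measured genes, and dotted lines mark a ratio of 1.5 either way. In the monocyte-like class 8 points are filled, against at most 1 in any other class.

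Monocyte-like cells came from 3 clusters, which were singled out after their values had been seen. Cluster 9 held the most cells of both genotypes, 461 Mgl2DTR and 231 WT, and was led by Fn1, F13a1 and Vcan. Its summed level was 3070 CPM in Mgl2DTR and 2283 CPM in WT (ratio 1.34, 1.29 to 1.40). Slc2a1 was the 1 gene of 10 called higher there, at 34.1 CPM in Mgl2DTR and 18.2 CPM in WT (1.87), where 6.01% of measured genes were called higher and 6.71% lower. None of the 10 was called there when cells were given equal totals, where the Slc2a1 ratio was 1.35. With cells thinned to 2000 UMIs, and at 200 counts, 8 genes were measured and none was called. Slc2a1 had too few counts to be called in either. With TMM scaling, which divides by a trimmed mean of ratios between the libraries, 3 were called higher. Without cells holding other lineages' genes 2 were called higher. Gapdh, Eno1, Aldoa, Pkm and Pgk1 had ratios between 1.35 and 1.47, below the size needed for a call but with intervals above 1, and Tpi1 and Pfkl stood at 1.01 and 1.06. The median log2 ratio of the 10 genes in cluster 9 was 0.45, and it lay between 0.33 and 0.52 under the alternatives. Neutrophil markers summed to 14804 CPM in Mgl2DTR and 2379 CPM in WT cells of this cluster; their part in the result was not tested.

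Cluster 23 was led by Arg1, Pf4, Ccl7 and Ccl2 and held 181 Mgl2DTR and 52 WT cells. There 9 of 10 genes were called higher, against 20.8% of measured genes, and 14.2% were called lower. Pkm had 588.8 CPM in Mgl2DTR and 130.3 CPM in WT (4.52, 3.49 to 5.94), and Eno1 had 340.0 CPM in Mgl2DTR and 75.7 CPM in WT (4.49, 3.20 to 6.49). Pgk1 had 357.9 CPM in Mgl2DTR and 90.4 CPM in WT (3.96). Slc2a1 had 80 UMIs in Mgl2DTR and 4 in WT cells (6.33, 2.38 to 23.8).

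The cells that carried the 2 hashtags in cluster 23 were unlike in other ways. Called doublets were 6.08% of the Mgl2DTR and 65.4% of the WT cells. Arg1, an arginase of alternatively activated macrophages, had 1798 CPM in Mgl2DTR and no UMI in WT cells. Macrophage markers summed to 2593 CPM in Mgl2DTR and 16488 CPM in WT cells, and Mgl2 to 7.32 and 1030 CPM. None of the 52 WT cells was left when cells with defining genes of another lineage were removed, so cluster 23 gives no comparison of like cells between genotypes. The 45 Mgl2DTR and 22 WT cells of cluster 36, which cycle, had 4 of 8 measured genes called higher and Hk2 lower, at 79.4 CPM in Mgl2DTR and 176.9 CPM in WT. There 5.88% of measured genes were called higher and 15.5% lower, and neutrophil markers summed to 103795 CPM in Mgl2DTR and 7929 CPM in WT.

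Within Mgl2DTR, where both clusters carried the same hashtag, Arg1-rich cluster 23 was set against cluster 9. Of the 10 genes 5 were called higher and none lower, against 15.9% and 10.1% of measured genes. Pfkl had 48.6 CPM in cluster 23 and 20.2 CPM in cluster 9 (2.40, 1.74 to 3.32), Tpi1 244.2 and 125.8 CPM (1.94), and Ldha 517.0 and 290.2 CPM (1.78). Pgk1 (1.60) and Slc2a1 (1.56) were called too. Gapdh had 1141 CPM in cluster 23 against 1182 CPM in cluster 9 of Mgl2DTR (0.97, 0.91 to 1.02). Within WT, 5 of 8 measured genes were called lower in cluster 23 and none higher, against 15.2% and 14.4% of measured genes. The WT cells of cluster 23 had no Arg1 UMI, were mostly called doublets and all held defining genes of another lineage. They give no WT counterpart to the Arg1-rich cells, here or for the hypoxia response genes that follow. Of 17 hypoxia response genes measured within Mgl2DTR, 9 were called higher in cluster 23 and 3 lower, against 15.9% and 10.1% of measured genes. Of 5 measured within WT, 0 were called higher and 2 lower, against 14.4% and 15.2%. Hif1a itself had 487.7 CPM in Mgl2DTR cluster 23 and 129.1 CPM in Mgl2DTR cluster 9.

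**Figure D3:**
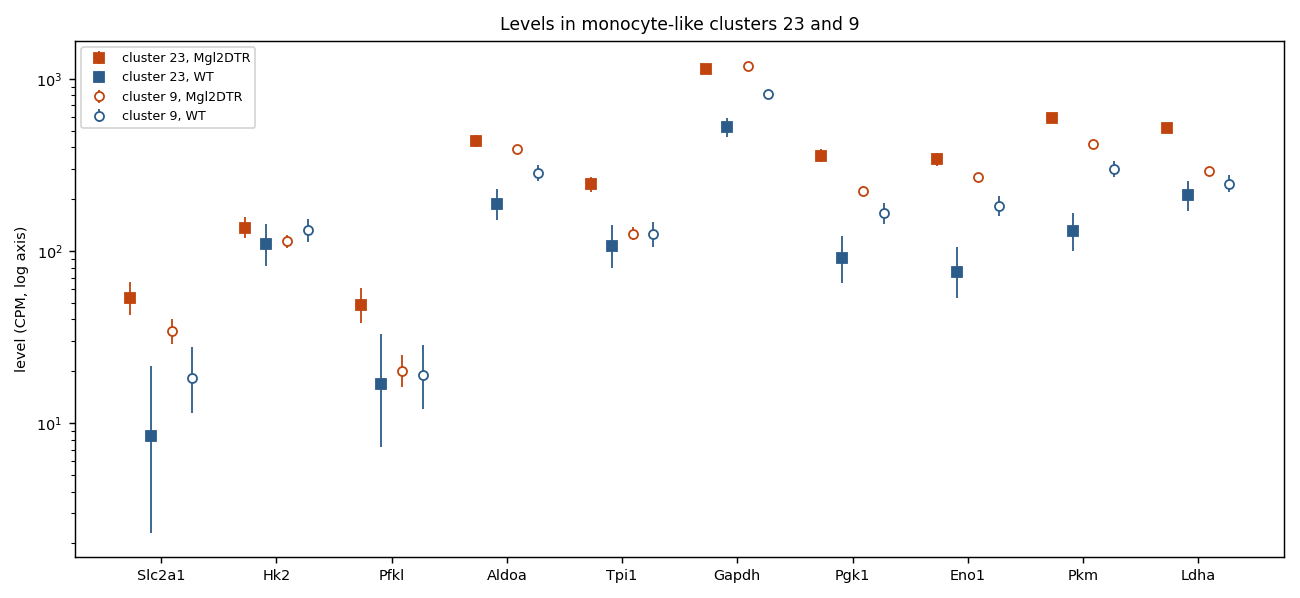
Levels (CPM, log axis) of the 10 genes in monocyte-like clusters 23 (filled squares) and 9 (open circles), with exact 95% intervals. The Mgl2DTR cells of cluster 23 are highest for Pfkl, Tpi1, Pgk1, Eno1, Pkm and Ldha, and the WT cells of cluster 23 are lowest for Pgk1, Eno1 and Pkm.

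Genes around the pathway were taken from lists, and their counts in monocyte-like cells were mixed. Of 12 other measured glycolytic genes 3 were called higher and 2 lower, and of 17 hypoxia response genes 7 higher and 1 lower. Slc16a3 was on both lists and is counted in each. Of all measured genes in monocyte-like cells 5.89% were called higher and 11.8% lower. None of 22 genes of pyruvate oxidation and the citric acid cycle was called. Hif1a had 196.5 CPM in Mgl2DTR and 83.3 CPM in WT monocyte-like cells (2.36). Slc16a3, which exports lactate, had 79.5 CPM in Mgl2DTR and 35.7 CPM in WT (2.23). Txnip, which is known to limit glucose uptake, had 47.4 CPM in Mgl2DTR and 134.9 CPM in WT (0.35). Pgd of the pentose phosphate pathway had 146.5 CPM in Mgl2DTR and 84.3 CPM in WT (1.74), and Ldhb, the heart-type lactate dehydrogenase, had 9.06 and 22.3 CPM (0.41).

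Slc2a1 was the only one of the 10 called higher in neutrophil-like cells, where 7.75% of measured genes were called higher and 6.65% lower. It had 31.5 CPM in Mgl2DTR and 12.7 CPM in WT (2.48, 1.81 to 3.44). The genotypes drew on different clusters: 649 Mgl2DTR and 117 WT cells lay in cluster 6, led by Cxcl2, G0s2, Il1b and Cxcr2, and 202 Mgl2DTR and 245 WT cells in cluster 13, led by the granule genes Ltf, Ngp and Camp. In cluster 6 Slc2a1 had 138.3 CPM in Mgl2DTR and 68.6 CPM in WT (2.01, 1.21 to 3.61), where 5.85% of measured genes were called higher. In cluster 13 it had 17.4 CPM in Mgl2DTR and 8.10 CPM in WT (2.15, 1.26 to 3.83), where 3.28% were called higher and 7.91% lower. Within Mgl2DTR it was 7.95-fold higher (5.84 to 10.96) in cluster 6 than in cluster 13; Pfkl (3.14) was called higher and Ldha (0.63) lower, against 33% and 21.8% of measured genes. Median depth was 1706 UMIs in cluster 6 and 13401 in cluster 13 of Mgl2DTR, and a Slc2a1 UMI was found in 21.4% and 20.8% of their cells. Thinned to 2000 UMIs, with shallower cells left out, the shares were 19.5% of 215 and 9.05% of 199 Mgl2DTR cells.

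Hk2 in cluster 6 had 77.7 CPM in Mgl2DTR and 124.4 CPM in WT (0.62) and was called lower there, where 10.9% of measured genes were. With TMM scaling, which moved the median log2 ratio of all measured genes in cluster 6 from -0.15 to 0.21, none of the 10 was called lower. With thinned cells none of 7 measured genes was called lower, and Hk2 had too few counts to be called. Cells of cluster 6 were shallow, with a median of 1706 UMIs in Mgl2DTR and 1744 in WT. When cells under 1000 genes or over 5% mitochondrial UMIs were left out, 65 Mgl2DTR and 16 WT cells of cluster 6 remained, the Slc2a1 ratio over all neutrophil-like cells was 1.36 and no longer called (9.13 with cells thinned to 2000 UMIs, where 5 WT cells held a UMI), and the Hk2 ratio in cluster 6 was 1.35.

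Counted by cell, a Slc2a1 UMI was found in 25.8% of Mgl2DTR and 9.18% of WT monocyte-like cells. In neutrophil-like cells the shares were 21.6% in Mgl2DTR and 10.4% in WT (7.66 to 13.8%). In T cell-like cells, where free RNA would also be counted, they were 3.85% in Mgl2DTR and 4.23% in WT (3.42 to 5.15%), with median depths of 3542 and 3174 UMIs. Cells were then thinned to 2000 UMIs and shallower ones left out: 44 Mgl2DTR and 23 WT monocyte-like, 437 Mgl2DTR and 93 WT neutrophil-like, and 76 Mgl2DTR and 562 WT T cell-like cells.

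Among the cells left, the monocyte-like shares were 8.24% of 643 Mgl2DTR (6.24 to 10.6%) and 3.19% of 282 WT cells (1.47 to 5.97%). The neutrophil-like shares were 11.5% of 531 Mgl2DTR (8.90 to 14.5%) and 1.57% of 319 WT cells (0.511 to 3.62%), and the T cell-like shares 1.20% of 417 Mgl2DTR and 1.53% of 1639 WT cells. The WT neutrophil-like share thus lay above that of WT T cell-like cells before thinning and beside it after, in fewer cells.

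For Hk2 the thinned shares of monocyte-like cells were 20.4% in Mgl2DTR and 20.2% in WT. Over all cells, Hk2 was found in 12.5% of 6303 Mgl2DTR and 13.7% of 10208 WT cells, and Slc2a1 in 3.66% and 2.03%. NK/ILC-like cells had a Hk2 UMI in 0 of 60 Mgl2DTR cells, which allows a share of up to 5% of cells with a UMI, and in 2.40% of 125 WT cells.

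In the other classes few calls were made. Slc2a1 was called higher in macrophage-like cells, with 18.4 CPM in Mgl2DTR and 11.5 CPM in WT (1.60, 1.13 to 2.25), where 4.21% of measured genes were called higher and 2.05% lower. It was also called higher in B cell-like cells, from 40 UMIs in Mgl2DTR and 17 in WT (2.46, 1.36 to 4.63), where 6.52% were called higher and 3.52% lower. Neutrophil markers summed to 3886 CPM in Mgl2DTR and 580.5 CPM in WT B cell-like cells, and leaving out cells with other lineages' genes gave a ratio of 1.47. Most of the 10 genes went the other way in B cell-like cells without being called. Hk2, Aldoa, Tpi1, Gapdh, Pgk1 and Eno1 had ratios between 0.69 and 0.88, with intervals below 1. The median log2 ratio of the 10 genes there was -0.23, against 0.06 for all measured genes. Pfkl was called lower in pDC-like cells, with 11.8 CPM in Mgl2DTR and 18.3 CPM in WT (0.65, 0.50 to 0.84), where 1.67% were called higher and 2.86% lower. Every ratio of the 10 genes in pDC-like cells lay between 0.65 (Pfkl) and 0.96 (Ldha). Their median log2 ratio was -0.27, against -0.003 for all measured genes. Ldha was called lower in NK/ILC-like cells, from 41 UMIs in Mgl2DTR and 133 in WT (0.66, 0.46 to 0.95), where 2.83% were called in each direction; 7 of the 10 genes were measured there, and the ratio was 0.88 at a coarser clustering.

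None of the 10 was called in either direction in cDC1-like, cDC2-like, activated DC-like or T cell-like cells. There 1.45%, 3.4%, 4.11% and 3.74% of measured genes were called higher and 1.95%, 4.01%, 2.34% and 3.47% lower, in that order. At resolution 0.5, 1 gene was called higher in cDC2-like cells. When cells were given equal totals, 1 was called higher in activated DC-like cells. Without called doublets, 1 was called lower in T cell-like cells. In cDC1-like cells, the deepest class, every ratio lay between 0.84 (Tpi1) and 1.09 (Slc2a1). In cDC2-like cells, the class that Mgl2 marks, Hk2 had 127.0 CPM in Mgl2DTR and 160.5 CPM in WT (0.79), and Slc2a1 28.9 and 22.1 CPM (1.31). Among regulators in cDC2-like cells, Hif1a had 94.2 CPM in Mgl2DTR and 59.6 CPM in WT (1.58) and Txnip 89.3 and 54.1 CPM (1.65).

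Activated DC-like cells carry Ccr7, Fscn1 and Ccl22 and are known as the migratory, mature state of dendritic cells. They were set against the cDC1-like and cDC2-like classes, which hold resting and cycling cells, the latter in clusters 3 and 21. Against cDC1-like cells, 9 of the 10 genes were called lower in Mgl2DTR and 6 in WT, where 28.8% and 29.1% of measured genes were, and 23.5% and 22.6% were called higher. Against cDC2-like cells, 7 of 10 were called lower in each genotype, where 35.8% of measured genes were in Mgl2DTR and 37.9% in WT, and 18.2% and 15.4% were called higher. With TMM scaling 4 in each genotype were called lower than in cDC2-like cells. The share of all measured genes was not counted under that scaling, so this count has none to be read against. Ldha had 113.8 CPM in activated DC-like and 416.9 CPM in cDC1-like cells of Mgl2DTR (0.27, 0.25 to 0.29), and 133.8 and 396.4 CPM in WT (0.34, 0.32 to 0.35). Hk2 had 37.8 CPM in activated DC-like and 115.3 CPM in cDC1-like cells of Mgl2DTR (0.33), and 41.2 and 118.2 CPM in WT (0.35). Tpi1 ratios were 0.43 in Mgl2DTR and 0.42 in WT.

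Aldoa was the exception. It had 262.0 CPM in activated DC-like and 209.2 CPM in cDC1-like cells of Mgl2DTR (1.25). In WT it had 273.9 and 204.5 CPM (1.34), and both ratios were below the size of a call. These cDC1-like values take in cycling cluster 3. Resting cluster 0 had 261.0 CPM of Aldoa in Mgl2DTR and 255.8 CPM in WT, near the activated DC-like levels. Against cDC2-like cells Pgk1 was level as well, at 1.05 in Mgl2DTR and 0.92 in WT. Activated DC-like cells were shallower, with medians of 5369.5 UMIs in Mgl2DTR and 7006 in WT, against 14826 and 15177 in cDC1-like cells. Cells were also thinned to 2000 UMIs and shallower ones left out, among them 167 Mgl2DTR and 226 WT activated DC-like cells. Then 7 genes in Mgl2DTR and 9 in WT were called lower than in cDC1-like cells, and 6 and 7 lower than in cDC2-like cells. The shares of all measured genes were not counted for thinned cells.

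**Figure D4:**
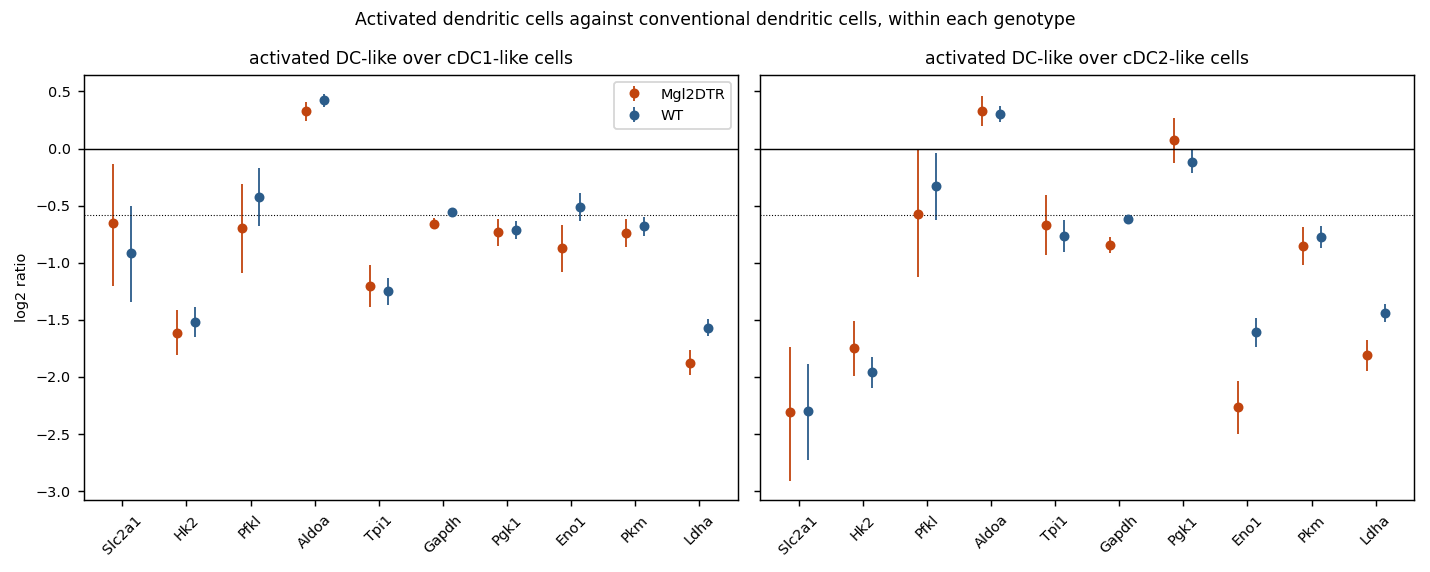
log2 ratio of activated DC-like over cDC1-like (left) and over cDC2-like cells (right), within Mgl2DTR and within WT, with exact 95% intervals. The dotted line marks a ratio of 1.5 down. Hk2, Tpi1 and Ldha lie below it in both panels and both genotypes, and Aldoa lies above 0.

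Among the clusters of activated DC-like cells, singled out after their values had been seen, cluster 4 was led by Ccl5, Il12b and Fscn1. Summed over the 10 genes it had 1203 CPM in Mgl2DTR and 1256 CPM in WT, against 864.4 and 951.0 CPM in cluster 18 and 1104 and 1345 CPM in cluster 7. Hk2 in cluster 4 had 15.8 CPM in Mgl2DTR and 6.42 CPM in WT, against 9.95 and 29.9 CPM in cluster 7 and 122.3 and 129.7 CPM in resting cDC1-like cluster 0. Ldha in cluster 4 had 39.1 CPM in Mgl2DTR and 44.0 CPM in WT, against 422.5 and 390.9 CPM in cluster 0. In cluster 10, led by Il12b, Gclc and Apol7c, Hk2 had 70.4 and 74.5 CPM and Ldha 198.9 and 220.2 CPM, Mgl2DTR first, between those values. Aldoa in cluster 4 had 318.5 CPM in Mgl2DTR and 314.8 CPM in WT, against 261.0 and 255.8 CPM in cluster 0.

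The step-wise partners of these genes differed between classes as well. Each 3′ UMI stands for 1 transcript whatever its length, so shares among isoenzymes were taken from UMIs. Eno3, the muscle enolase, made up 68.7% of enolase UMIs in Mgl2DTR and 68.0% in WT activated DC-like cells, and Eno1 16.6% and 22.8%. In cDC1-like cells Eno1 made up 88.5% and 87.8%, Mgl2DTR first. Eno3 had 151.2 and 147.7 CPM in activated DC-like cells and 7.11 and 8.03 CPM in cDC1-like cells. Slc2a6, a related transporter, gave 83.9% of the UMIs of Slc2a1, Slc2a3 and Slc2a6 in Mgl2DTR and 85.0% in WT activated DC-like cells. Pfkfb3, whose product makes the activator of phosphofructokinase, had 192.0 and 160.2 CPM there, against 15.2 and 16.9 CPM in cDC1-like cells.

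Hexokinase UMIs came mostly from Hk2 in dendritic, macrophage-like and monocyte-like cells, between 65.8% and 89.9%. Hk3 gave 47.0% in Mgl2DTR and 40.7% in WT neutrophil-like cells, and Hk1 53.2% and 43.1% in T cell-like cells. Slc2a3, a high-affinity transporter, gave 54.8% of the 3 transporters' UMIs in Mgl2DTR and 78.0% in WT neutrophil-like cells. Pfkp, the platelet-type phosphofructokinase, outnumbered Pfkl in every class, with 60.4% to 88.0% of phosphofructokinase UMIs. Ldhb gave 9.49% of lactate dehydrogenase UMIs in Mgl2DTR and 18.4% in WT T cell-like cells.

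**Figure D5:**
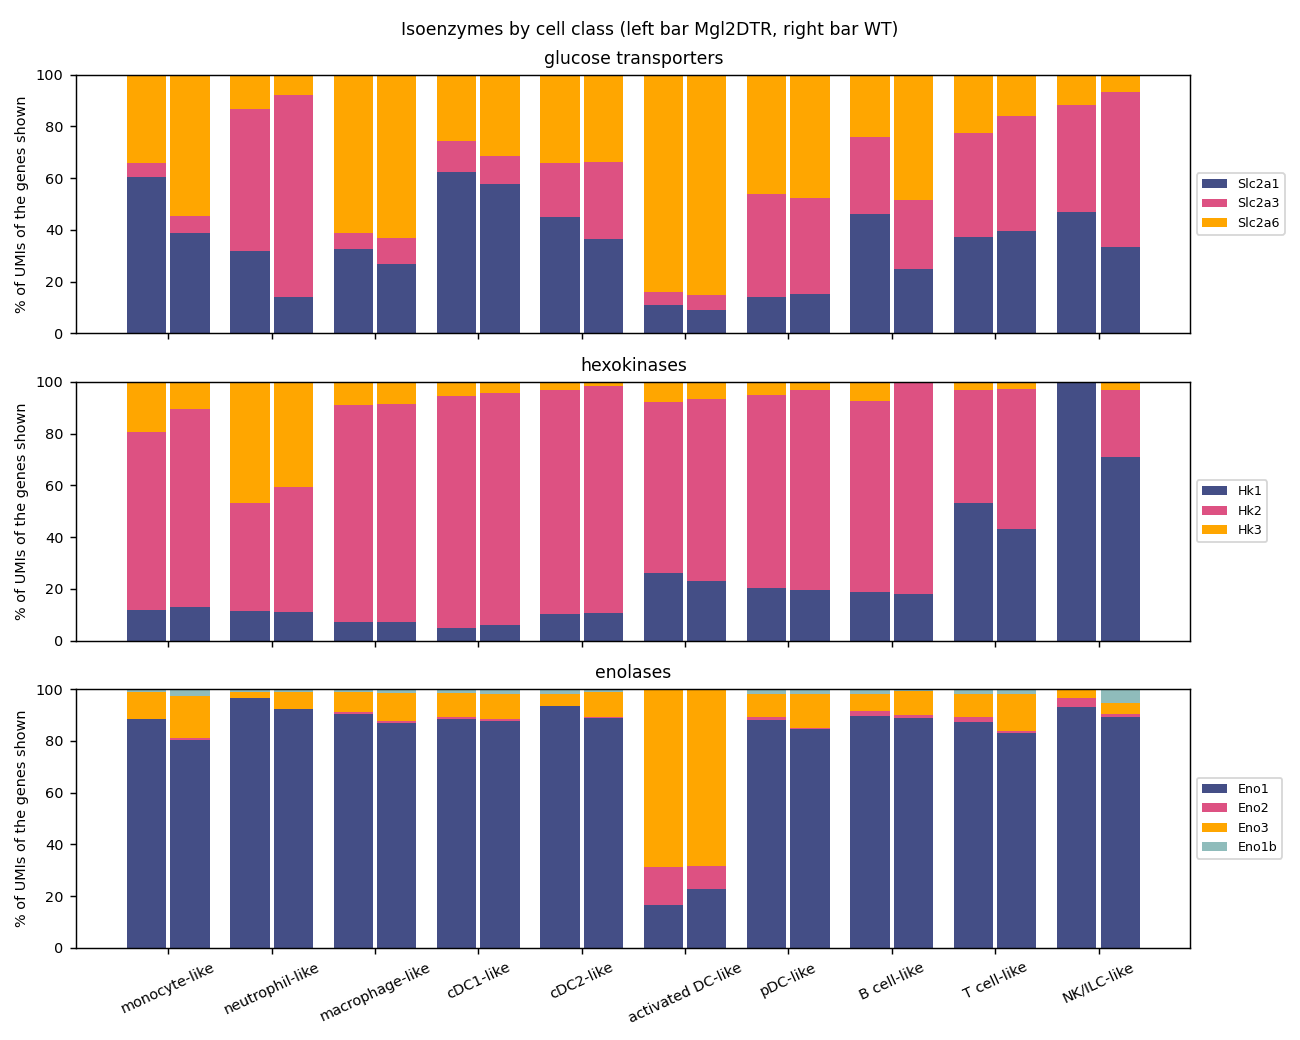
Share of UMIs (%) of 3 glucose transporters, 3 hexokinases and 4 enolases by cell class, Mgl2DTR left and WT right in each pair. Eno3 and Slc2a6 take most of the bars of activated DC-like cells, Hk3 has its largest share in neutrophil-like cells and Hk1 in NK/ILC-like cells.

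Cycling and resting cells of 1 lineage, chosen after their values had been seen, were set against each other within each genotype. In cycling cDC1-like cells (cluster 3) Aldoa was lower, with 140.0 CPM against 261.0 CPM in resting cells of Mgl2DTR (0.54) and 148.1 against 255.8 CPM in WT (0.58). Tpi1 was higher, with 126.2 against 83.7 CPM in Mgl2DTR (1.51) and 148.7 against 95.3 CPM in WT (1.56). Of all measured genes 11.5% in Mgl2DTR and 12.1% in WT were called higher in cycling cDC1-like cells, and 6.39% and 5.92% lower. Aldoa was also called lower in cycling cDC2-like cells, at 0.61 in Mgl2DTR and 0.55 in WT, where 9.52% and 8.11% of measured genes were and 11.4% and 10.9% were called higher. Slc2a1 (0.49) and Eno1 (0.62) were called lower there in Mgl2DTR alone. Tpi1 was not called in cycling cDC2-like cells, at 1.23 in Mgl2DTR and 1.37 in WT. The other 8 genes were not called in cycling cDC1-like cells of either genotype. Cycling T cell-like cells were set against post-selection ones, with 7 genes measured in Mgl2DTR and 9 in WT, and 13.8% and 11.9% of all measured genes were called higher and 11.8% and 12.5% lower. Tpi1 was higher there, at 2.12 in Mgl2DTR and 2.63 in WT, and so was Gapdh, at 1.62 and 1.53. Pgk1 was called higher in WT (1.55). Aldoa was called lower in Mgl2DTR (0.47) and was 0.81 in WT, not called.

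Across 33 clusters with at least 50 WT cells, the level of each gene was compared with the mean of the other 9, on log2(CPM + 1). Pearson's r was highest for Pkm (0.74) and lowest for Aldoa (0.29), as a description over clusters of 1 library. Of 6584 other genes with at least 50 CPM in a cluster, Pgam1, the phosphoglycerate mutase between Pgk1 and Eno1 in the pathway, was most like the 10 (r = 0.90). Susd3 (0.77), Prdx6 (0.77), Cdk2ap2 (0.76), Aprt (0.76), Eif4ebp1 (0.76), Fam111a (0.75) and Atp8b4 (0.75) followed.

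On mm10 the genes lie on chromosomes 4 (Slc2a1, Eno1), 6 (Hk2, Tpi1, Gapdh), 7 (Aldoa, Ldha), 9 (Pkm), 10 (Pfkl) and X (Pgk1). The annotation holds genes named as copies of Aldoa, Gapdh, Pgk1, Eno1 and Ldha, between 1 and 4 each, and reads shared with such copies make those levels uncertain. Tails of the transcripts do not separate the M1 and M2 forms of Pkm. Slc2a1 and Hk2 overlap annotated antisense genes, and Aldoa, Tpi1 and Gapdh overlap genes on the opposite strand. The sources used here do not say whether counting used strand, so such reads cannot be told apart. Pkm overlaps Gm49759, and Slc2a1 overlaps Mir1957a, on the same strand, where strand cannot separate reads.

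One cycling cluster stayed unnamed and stood out for these genes, and was singled out after its values had been seen. It was led by Ifitm1, Bex6 and Gria3 and held 257 Mgl2DTR and 65 WT cells. Of 9 measured genes 7 were called higher in Mgl2DTR, where 8.95% of measured genes were called higher and 17.9% lower. Aldoa had 267.2 CPM in Mgl2DTR and 70.7 CPM in WT (3.78), and Ldha 547.5 and 202.9 CPM (2.70). Markers of pDC summed to 2122 CPM in Mgl2DTR and 13880 CPM in WT cells of this cluster, so unlike cells were compared; the part of this in the ratios was not tested.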

How the data were processed

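The submitters' processing notes name Cell Ranger 6.0.0, Seurat 4.0.4 and mm10 without giving their roles, and no source used here names the gene annotation. Counts in the deposited tables are whole, unnormalized UMIs for each gene in each cell, and the deposited annotation gives each cell's total count and hashtag call, from which genotype was taken; 8 of its columns were not used. Cells with a pair of hashtags (9829) or none (78) were left out. The 10 genes, the lists and the contrasts were chosen with earlier results of these data known.

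For clustering, each cell was scaled to a total of 10000 and logged. Variable genes (2000, without Mgl2, the 10 genes and the lists), 30 principal components and 20 neighbours went into Leiden clustering (leidenalg 0.10.2, resolution 1; Python 3.11.15). A marker counted at 2 times the CPM of other cells, with 10 CPM added, in 20% of cells. A cluster needed 50 cells and 3 markers for a name. It stayed unnamed where 60% of another lineage's list counted, or where its top 10 genes held more markers of that lineage. In all, 12 clusters stayed unnamed. A doublet was called where at least 51% of 50 neighbours carried a pair of hashtags, which called 684 Mgl2DTR and 1155 WT cells and 52.6% of known pairs; called cells stayed in the main results. CPM carry Poisson, shares Clopper-Pearson and ratios exact conditional intervals. A count of 0 was set against 3 counts. No test was made, with 1 library per genotype. The calls were tried on simulated data that held counting error alone. That trial cannot speak to differences between animals, doublets or the mix of cells. edgeR 4.0.16 served for TMM scaling only. Of each list, the 3 called genes furthest from a ratio of 1 in a class could be named, with the 8 genes most like the 10 across clusters, and further list genes named for isoenzyme shares and in clusters were chosen after their values were seen.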

Additional observations from a re-analysis of the deposited data

Results flagged for a closer look

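Pfkl and Ldha were called in opposite directions in different classes, and the difference between classes was not tested. The Pfkl ratio, Mgl2DTR over WT, was 1.62 in monocyte-like and 0.647 in pDC-like cells. The Ldha ratio was 1.57 in monocyte-like and 0.665 in NK/ILC-like cells. Both monocyte-like values fell below the size of a call without cells holding other lineages' genes, at 1.48 for Pfkl and 1.44 for Ldha.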

How the results depend on the processing

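No paired analysis was possible because each genotype was treated as 1 library, and for the same reason no library could be left out. Over the 10 classes, 11 calls of the 10 genes were higher and 2 lower. The higher calls numbered 7 with cells thinned to 2000 UMIs, 3 without cells holding other lineages' genes and 3 at a ratio of 2. With thinned cells, Pfkl in monocyte-like cells and Slc2a1 in macrophage-like and B cell-like cells had too few counts to be called. The lower calls numbered 1 with thinned cells, 1 at 200 counts, 1 at resolution 0.5 and 0 at a ratio of 2. They numbered 3 with TMM scaling, 3 without called doublets and 3 without cells holding other lineages' genes. At 200 counts Ldha in NK/ILC-like cells, with 41 UMIs in Mgl2DTR and 133 in WT, had too few counts to be called. List genes gave 38 higher and 23 lower calls; these were 22 and 10 with thinned cells, 24 and 7 at 200 counts, and 9 and 8 at a ratio of 2, and the lower calls 47 when cells were given equal totals. The genes lower in activated DC-like than cDC1-like cells, 9 in Mgl2DTR and 6 in WT, were 3 in each at a ratio of 2. Those against cDC2-like cells, 7 in each, were 4 in each with TMM scaling and 4 in each at a ratio of 2. Shares of all measured genes called were not counted under the alternatives. Monocyte-like over activated DC-like sums in Mgl2DTR gave 2.61, 2.77 without called doublets and 2.83 when cells were given equal totals. Neutrophil-like over NK/ILC-like sums in WT gave 1.87, and 2.58 with marker genes left out of the total, an alternative chosen after seeing the data. Unthinned, Slc2a1 was found in 12.6% of Mgl2DTR and 9.28% of WT cells, and Hk2 in 36.7% and 39.9%. TMM scaling moved the median log2 ratio of all measured genes in monocyte-like cells from -0.07 to 0.09, and 8 of the 10 genes were called under either. Of the recomputed single ratios, 458 kept within the main interval, 84 moved outside it and 1 reversed, Hk2 in cluster 6, at 1.35 with the cell filter. Scaling each cell and the fixed mix of clusters have no exact interval, so calls there went by size alone. The cause of these changes was not tested. Of the 10 genes 7 reached 50 counts in NK/ILC-like cells.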
